A study of Rattus norvegicus with 9 samples.

Results

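The circadian clock genes described here are 9 genes taken by symbol from the expression table: Per1, Per2, Per3, Cry1, Cry2, Dbp, Nr1d1, Nr1d2 and Clock. All 9 were among the 12609 gene symbols of the table and all 9 passed the filter on low values, which 10180 symbols passed. Expression had been measured by RNA sequencing in 9 rat brain libraries in 3 groups of 3. IR+NMN libraries were made from rats whose middle cerebral artery had been occluded (MCAO, a surgical model of ischemic stroke) and that received 100 mg/kg of nicotinamide mononucleotide (NMN), from which cells make NAD, in saline by injection. IR libraries came from rats with the occlusion and Sham libraries from rats operated on without it, and both carry phosphate-buffered saline (PBS) as their treatment label. No strain, sex, age, brain region, interval after surgery or time of day of tissue collection is stated in the sources used here. Nor is it stated that the libraries are from different animals, and the p-values then reflect the spread of these libraries alone, which may be technical.

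The mammalian clock is a feedback loop of transcription. CLOCK pairs with BMAL1, binds E-box sequences and switches on Per, Cry, Nr1d1, Nr1d2 and Dbp. The PER and CRY proteins then return to the nucleus and repress CLOCK and BMAL1, while NR1D1 and NR1D2 (REV-ERB alpha and beta) repress Bmal1. DBP carries the rhythm to other genes by activating D-box sequences, which the repressor NFIL3 also binds. The loop runs in neurons and glia all over the brain, and its transcripts rise and fall over the day, with those of Bmal1 roughly opposite in phase to those of Per and Dbp.

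Promoter sequences are shown for Per2, Cry2 and Nr1d1, the E-box targets among the members with a match to an E-box motif in the window given. RefSeq (build GRCr8) held such a window, 250 bases before to 50 after a gene start, for 8 of the 9 members, and for 10 starts in all, with Cry1 the member without one. Both strands were searched for CACGTG (the E-box), CACGTT (a common variant of it), TTATGNAA (the core of the D-box) and AGGTCA (a single site of nuclear receptors), and no matches overlapped each other. Capitals mark the matches, and each sequence runs 5′ to 3′ on the strand of the gene. The Per2 window lies at chr9:99496944-99497243 on the minus strand, the Cry2 window at chr3:98860388-98860687 on the minus strand, and the Nr1d1 windows at chr10:84231763-84232062 and chr10:84229405-84229704, also on the minus strand.
Per2: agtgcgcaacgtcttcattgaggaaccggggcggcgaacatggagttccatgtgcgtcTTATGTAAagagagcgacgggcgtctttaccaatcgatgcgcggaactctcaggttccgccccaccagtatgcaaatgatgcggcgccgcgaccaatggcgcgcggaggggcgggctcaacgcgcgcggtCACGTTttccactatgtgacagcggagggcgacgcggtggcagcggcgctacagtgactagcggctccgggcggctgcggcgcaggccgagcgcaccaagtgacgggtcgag
Cry2: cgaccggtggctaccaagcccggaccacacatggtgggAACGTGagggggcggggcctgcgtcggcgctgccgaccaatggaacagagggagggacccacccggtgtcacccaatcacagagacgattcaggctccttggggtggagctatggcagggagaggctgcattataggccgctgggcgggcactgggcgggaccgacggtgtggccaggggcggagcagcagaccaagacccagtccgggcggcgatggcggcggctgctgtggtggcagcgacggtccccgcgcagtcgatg
Nr1d1, start at the higher coordinate: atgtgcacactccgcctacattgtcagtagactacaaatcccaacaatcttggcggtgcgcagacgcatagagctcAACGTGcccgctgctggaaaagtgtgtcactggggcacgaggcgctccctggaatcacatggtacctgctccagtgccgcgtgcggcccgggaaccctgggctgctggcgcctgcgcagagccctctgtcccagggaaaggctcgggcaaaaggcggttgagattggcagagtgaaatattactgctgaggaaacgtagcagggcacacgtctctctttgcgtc
Nr1d1, start at the lower coordinate: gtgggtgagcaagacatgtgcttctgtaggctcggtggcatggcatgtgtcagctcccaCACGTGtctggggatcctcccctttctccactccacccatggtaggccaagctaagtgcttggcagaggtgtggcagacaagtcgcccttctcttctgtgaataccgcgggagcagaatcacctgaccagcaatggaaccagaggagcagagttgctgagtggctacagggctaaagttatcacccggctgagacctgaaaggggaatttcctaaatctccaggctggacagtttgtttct
Per2 held the variant CACGTT, whose first base lay 62 bases before the start, and the D-box core TTATGTAA 192 bases before it. Cry2 held the variant on the other strand (AACGTG) 212 bases before the start, and Nr1d1 held it 174 bases before 1 start and CACGTG 191 bases before the other. Nr1d2 held AGGTCA. Of 33469 windows of this length in the RefSeq table, 6.42% held CACGTG, 4.83% CACGTT, 3.66% TTATGNAA and 16.2% AGGTCA, so these matches are a description of the windows only.

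The values were TPM, a share of transcripts scaled for length, as the authors normalized them, with all rows of a symbol added up. Changes are differences of group means of log2(TPM + 1), with standard error (SE). They come from limma fitted to all genes and all 9 libraries, with two-sided p-values adjusted by the Benjamini-Hochberg method over the 10180 genes and a threshold of 0.05. TPM carries no read numbers, and sequencing depth is unknown. Over all genes the median change was 0.041 for IR+NMN against IR, -0.14 for IR+NMN against Sham and -0.21 for IR against Sham.

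Dbp was the most abundant member in every group, and all of its libraries lay above those of the next member. In IR+NMN libraries Dbp averaged 53.3 ± 17.1 TPM and Cry1, the least abundant, 6.17 ± 0.653 TPM (SD, n = 3 here and for all group values), and all neighbours in the order below Dbp overlapped. In IR libraries Dbp averaged 73.1 ± 4.91 TPM and Cry1 4.96 ± 1.35 TPM, and among the others only Per1 stood clear of the member below it, Clock. In Sham libraries Dbp averaged 155 ± 5.49 TPM, ahead of Nr1d1, Cry2, Nr1d2, Per1, Per3, Clock, Per2 and Cry1, which averaged 5.84 ± 0.811 TPM. In that order Nr1d1 and Cry2, Nr1d2 and Per1, and Clock and Per2 were neighbours whose Sham libraries overlapped.

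**Figure D1:**
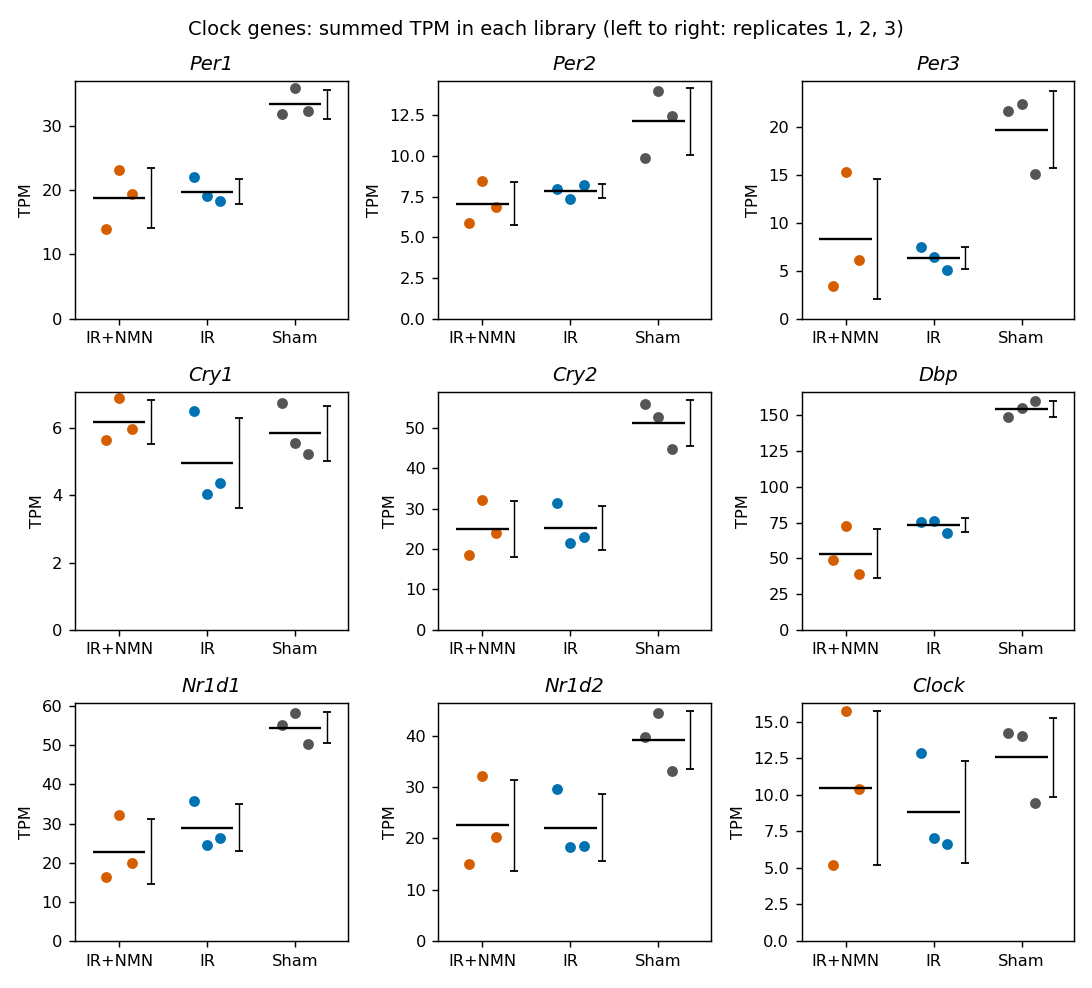
Summed TPM of the 9 clock genes in each library, with 1 panel per gene, TPM on the vertical axis and the groups IR+NMN, IR and Sham from left to right. Points are libraries in the order of replicates 1 to 3, lines are group means and bars are SD (n = 3). For Per1, Per2, Cry2, Dbp, Nr1d1 and Nr1d2 every IR+NMN and IR library lay below every Sham library, while Cry1 and Clock overlapped.

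In bulk tissue fewer cells of a type and less RNA per cell cannot be told apart, and sums of cell type markers stand here beside the members' values. All 8 neuron markers of the list were in the table, with sums of 3585 to 4393 TPM in IR+NMN, 3992 to 6213 TPM in IR and 4886 to 6094 TPM in Sham libraries. The 7 astrocyte markers summed to 5355 to 7564 TPM in IR+NMN, 3641 to 5918 TPM in IR and 2743 to 3852 TPM in Sham libraries. All IR+NMN sums lay above all Sham sums, but among these markers only Gfap showed that order. Gfap had 4121, 4634 and 4315 TPM in IR+NMN and 801, 498 and 394 TPM in Sham libraries. S100b showed the reverse, with 829, 1267 and 717 TPM in IR+NMN and 1580, 1498 and 1685 TPM in Sham libraries, and the remaining markers overlapped. The 7 oligodendrocyte markers summed to 3477 to 8808 TPM in IR+NMN, 3975 to 7511 TPM in IR and 5732 to 12557 TPM in Sham libraries. The 7 microglia markers summed to 317 to 418 TPM, 373 to 381 TPM and 321 to 355 TPM in the same groups. That sum hides opposite orders. P2ry12 had 6.38, 13.1 and 7.48 TPM in IR+NMN, 14.5, 23.4 and 24.1 TPM in IR and 34.4, 33.3 and 36.4 TPM in Sham libraries. C1qa had 146, 162 and 114 TPM, 151, 147 and 138 TPM and 65.2, 67.7 and 79.7 TPM in the same groups. Of 8 markers of the hypothalamus and its suprachiasmatic nucleus, the site of the central clock, 5 were in the table. They summed to 8.84 to 15.6 TPM in IR+NMN, 15.9 to 27.8 TPM in IR and 21.9 to 31.9 TPM in Sham libraries, so that all IR+NMN libraries lay below all others. Most of that sum was Vip in every library, a peptide gene that cortical interneurons also express. The 7 endothelial markers summed to 85.8 to 127 TPM in IR+NMN, 94.0 to 116 TPM in IR and 138 to 191 TPM in Sham libraries. The 5 choroid plexus markers summed to 5.60 to 8.29 TPM, 2.11 to 3.82 TPM and 26.7 to 44.4 TPM in the same groups. For 7 markers of infiltrating phagocytes the sums were 133 to 1098 TPM in IR+NMN, 62.6 to 84.8 TPM in IR and 57.7 to 107 TPM in Sham libraries. The 5 red blood cell markers summed to 823 to 1009.85 TPM in IR+NMN, 729.9 to 899 TPM in IR and 4075 to 9329.9 TPM in Sham libraries. None of the markers found in the table from these 9 lists was at 0 in every library. Of 5 markers of other organs 4 were in the table, with sums of 3.69 to 6.61 TPM in IR+NMN, 17.5 to 23.0 TPM in IR and 9.55 to 51.2 TPM in Sham libraries, and Apoa2 was at 0 throughout. Their part in the members' values was not tested.

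IR and Sham differ in the occlusion itself. Dbp, Cry2 and Per1 fell in IR, and no member rose, as 1.14% of all genes did. These 3 of 9 members passed the test as lower, where 5.26% of all genes did. All 9 had a change below 0, as did 72.6% of all genes, and in 7 of 9 every IR library lay below every Sham library, which held for 26.7% of all genes. The median change of the members was -0.82.

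The output factor Dbp had 75.5, 76.4 and 67.5 TPM in IR libraries, against 149, 155 and 159.9 TPM in Sham libraries. The groups lay far apart, and the change was -1.07 (SE 0.20, limma adjusted p = 0.0211), or -0.87 relative to the median of all genes. Cry2, 1 of the 2 cryptochrome repressors, had 31.5, 21.4 and 22.8 TPM in IR libraries, against 55.9, 52.7 and 44.8 TPM in Sham libraries. IR 1 was the highest IR library but still lay below Sham 3, the lowest Sham library, and the change was -1.003 (SE 0.22, limma adjusted p = 0.0345), or -0.80 relative to that median. Per1, a period repressor that neuronal activity and glucocorticoids can also induce, had 22.0, 19.0 and 18.3 TPM in IR libraries, against 31.9, 35.9 and 32.3 TPM in Sham libraries. The groups lay apart, with a change of -0.73 (SE 0.18, limma adjusted p = 0.0464), or -0.52 relative to that median. The calls of all 3 were lost without Sham 1, Sham 2, Sham 3, IR 2 or IR 3 and with the highest row per symbol. They were also lost with replicate numbers as a block (limma adjusted p = 0.0551 for Dbp, 0.0958 for Cry2 and 0.108 for Per1). The calls of Cry2 and Per1 were lost without IR+NMN 3 too. Over these fits the limma adjusted p rose up to 0.0987 for Dbp, 0.143 for Cry2 and 0.177 for Per1. Per1 also missed the threshold with median-of-ratios scaling (0.0532) and without the filter on low values (0.0514).

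Nr1d1, Nr1d2, Per2 and Per3 did not pass the test, although their IR and Sham libraries did not overlap. Nr1d1, which encodes the repressor REV-ERB alpha, had 35.8, 24.6 and 26.4 TPM in IR libraries, against 55.1, 58.2 and 50.3 TPM in Sham libraries (log2 change -0.91, SE 0.24, limma adjusted p = 0.0541). It passed with quantile normalization (0.0354), with median-of-ratios scaling (0.0442), in the fit to IR and Sham alone (0.0290), and without IR 1 (0.0377), IR+NMN 1 (0.0397) or IR+NMN 2 (0.0186). Its relative Nr1d2, REV-ERB beta, had 29.6, 18.2 and 18.5 TPM in IR libraries, against 39.7, 44.5 and 33.2 TPM in Sham libraries (log2 change -0.82, SE 0.28, limma adjusted p = 0.103). The highest IR library, IR 1, lay near the lowest Sham library, Sham 3.

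The repressor Per3 had 7.46, 6.47 and 5.11 TPM in IR libraries, against 21.7, 22.4 and 15.1 TPM in Sham libraries. Its change of -1.49 was the largest of the members in size and also the least precise, with an SE of 0.41 (limma adjusted p = 0.0618). Per2, the third period gene, had 7.99, 7.38 and 8.21 TPM in IR libraries, against 9.90, 14.0 and 12.5 TPM in Sham libraries (log2 change -0.56, SE 0.17, limma adjusted p = 0.0756). Without IR+NMN 2, all 4 of these genes passed as lower, with limma adjusted p of 0.0480 for Per2, 0.0128 for Per3, 0.0186 for Nr1d1 and 0.0483 for Nr1d2. That raised the count to 7 of 9, while 1123 of all genes passed, against 651 in the main fit. The count was 0 without Sham 1, Sham 2, Sham 3, IR 2 or IR 3, where 230, 56, 99, 74 and 82 of all genes passed. It was 1 without IR+NMN 3 (284 of all genes). It was 5 without IR+NMN 1 (760 of all genes), when Per3 passed too (0.0318), and in the fit to IR and Sham alone (699 of all genes, Per3 0.0153). Without IR 1 the count was 4, where 1142 of all genes passed. With the highest row per symbol it was 0, where 736 of all genes passed. The member counts thus did not follow the calls over all genes in every fit.

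Cry1 and Clock overlapped between IR and Sham. Cry1, the other cryptochrome, had 6.51, 4.03 and 4.35 TPM in IR libraries, against 6.76, 5.55 and 5.22 TPM in Sham libraries. Its change was -0.21 (limma adjusted p = 0.448), with a 95% interval from -0.63 to 0.20, and its sign turned with quantile normalization (0.082). Clock, which encodes the activating partner of BMAL1, had 12.9, 7.02 and 6.60 TPM in IR libraries, against 14.2, 14.0 and 9.45 TPM in Sham libraries. Its change was -0.50 (limma adjusted p = 0.388), with a 95% interval from -1.34 to 0.34. Scaling of the libraries moved the median of all genes for IR against Sham, to 0.0082 with median-of-ratios scaling and 1.33e-05 with quantile normalization, and for IR+NMN against Sham, to -0.0027 and -0.022. It also moved the split of calls over all genes for IR against Sham. It was 116 higher and 535 lower as deposited, 311 higher and 272 lower with median-of-ratios scaling, and 290 higher and 292 lower with quantile normalization. The members called lower were 3 of 9, 3 of 9 and 4 of 9 in these fits.

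**Figure D2:**
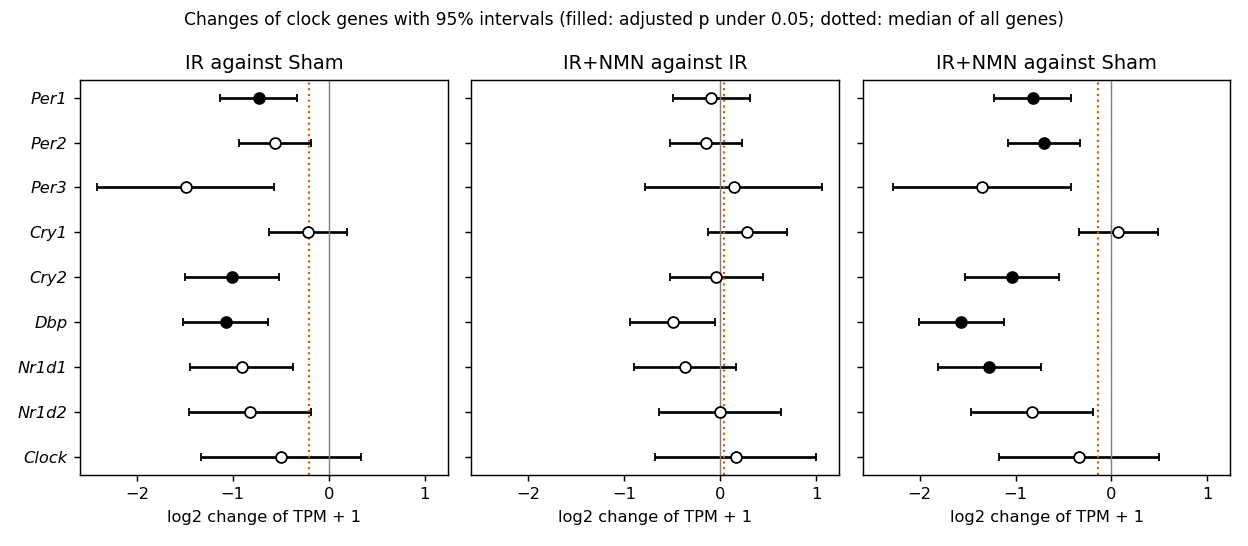
Log2 change of TPM + 1 of each clock gene (points) with its 95% interval (bars) in the 3 comparisons, with 0 as the grey line and the median of all genes as the dotted line. Filled points passed the test, namely 3 genes in IR against Sham, none in IR+NMN against IR and 5 in IR+NMN against Sham.

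IR+NMN and IR differ in the NMN injection. NMN was given in saline and IR carries PBS as its treatment label, so any effect of the vehicle cannot be told apart from that of NMN. No member passed the test by limma, where 2.36% of all genes did (0.0589% as lower and 2.30% as higher), and 1 of 9 (Dbp) had an unadjusted p under 0.05, where 13.3% of all genes did. The change was below 0 in 6 of 9 members and in 42.0% of all genes. In all 9 members the libraries of the groups overlapped, so that 0 of 9 lay apart as lower, as 3.22% of all genes did. Dbp had 48.6, 72.3 and 39.0 TPM in IR+NMN libraries, against 75.5, 76.4 and 67.5 TPM in IR libraries. IR+NMN 2 lay among the IR libraries and the other IR+NMN libraries below them, and the change was -0.49 (SE 0.20, 95% interval -0.93 to -0.05, limma adjusted p = 0.303). Without IR+NMN 2, Dbp passed as lower (log2 change -0.73, limma adjusted p = 0.0182). For Nr1d1, with 16.4, 32.1 and 19.9 TPM in IR+NMN libraries against the 35.8, 24.6 and 26.4 TPM in IR libraries, the change was -0.37, with a 95% interval from -0.90 to 0.17. Intervals of the other 7 members all held 0, and the widest were those of Per3 (-0.79 to 1.07) and Clock (-0.67 to 0.997).

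The SD of the TPM was largest in the IR+NMN group for 7 of 9 members, and not for Per2 and Cry1. Within the group IR+NMN 2 had the highest value of all 9 members, and IR+NMN 1 the lowest of 8 of 9. Per3 had 3.42, 15.3 and 6.14 TPM in the 3 IR+NMN libraries, so IR+NMN 2 reached the lowest Sham library, Sham 3, at 15.1 TPM. Clock had 5.19, 15.7 and 10.4 TPM in IR+NMN libraries, and its value in IR+NMN 2 was above all 3 Sham libraries. Among IR libraries, IR 1 had the highest value of 7 of 9 members. These counts of SD and of highest and lowest libraries were taken for the members alone. They were not taken over all genes, so they do not set the members apart from other genes. IR+NMN 2 and IR 1 also had the highest sum of their group for 6 of 10 lists of cell type markers, which were those of neurons, astrocytes, oligodendrocytes, microglia, endothelium and red blood cells. Neuron markers summed to 4393 TPM in IR+NMN 2 and 3585 and 4037 TPM in the other IR+NMN libraries, and to 6213 TPM in IR 1 and 3992 and 4712 TPM in the other IR libraries. Of 8 neuron markers 5 were highest in IR+NMN 2 within its group and 6 in IR 1 within its group, while Stmn2 and Tubb3 were highest in IR+NMN 1 and lowest in IR 1. The sum of infiltrating phagocyte markers was lowest in IR+NMN 2, at 133 TPM, with 1098 TPM in IR+NMN 1 and 617 TPM in IR+NMN 3. The part of these differences in the members' values was not tested.

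The comparison of IR+NMN with Sham set treated rats with the occlusion against rats without it. Dbp, Nr1d1, Cry2, Per1 and Per2 fell in IR+NMN, which is 5 of 9 members, where 6.13% of all genes passed as lower, and no member rose, as 4.21% of all genes did. The change was below 0 in 8 of 9 members and in 64.8% of all genes. In 6 of 9 members every IR+NMN library lay below every Sham library, which held for 20.4% of all genes. The median change of the members was -0.83. The Sham libraries are the same as in the comparison of IR with Sham, so the falls in both comparisons are not independent of each other.

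Dbp changed by -1.56 (SE 0.20, limma adjusted p = 0.00309), which is -1.42 relative to the median of all genes, and kept its call in all 16 alternatives. Nr1d1 changed by -1.27 (SE 0.24, limma adjusted p = 0.0139) and lost its call without Sham 2 (0.0636) or IR+NMN 3 (0.0681). Cry2, with 18.4, 32.1 and 24.0 TPM in IR+NMN libraries, changed by -1.04 (SE 0.22, limma adjusted p = 0.0206). Its call was lost without Sham 1, Sham 2, IR+NMN 1 or IR+NMN 3 (up to 0.0886) and with the highest row per symbol (0.0614). Replicate numbers as a block also removed it (0.0590). Per1, with 13.9, 23.2 and 19.4 TPM in IR+NMN libraries, changed by -0.82 (SE 0.18, limma adjusted p = 0.0231), and Per2, with 5.87, 8.49 and 6.84 TPM, by -0.70 (SE 0.17, limma adjusted p = 0.0324). Per1 lost its call without any 1 of the 3 Sham libraries, IR+NMN 1 or IR+NMN 3 (up to 0.102) and with the highest row per symbol (0.0805). The call of Per1 was also lost in the fit to IR+NMN and Sham alone (0.0543) and with replicate numbers as a block (0.0582). When 1 library was left out, Per2 kept its call for Sham 1, IR 1 and IR+NMN 2 and lost it for each of the others (up to 0.134). It also lost it in the fit to IR+NMN and Sham alone (0.0729) and with replicate numbers as a block (0.0587).

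Nr1d2, Per3, Clock and Cry1 did not pass between IR+NMN and Sham. Nr1d2 had 15.0, 32.2 and 20.4 TPM in IR+NMN libraries, of which IR+NMN 2 lay close below Sham 3 at 33.2 TPM (log2 change -0.83, SE 0.28, limma adjusted p = 0.0910). Per3 changed by -1.35 (SE 0.41, limma adjusted p = 0.0665). Both passed without IR+NMN 2, with limma adjusted p of 0.0187 for Nr1d2 and 0.00366 for Per3, and with quantile normalization (0.0444 and 0.0476). Clock changed by -0.34 (95% interval -1.17 to 0.50, limma adjusted p = 0.555), and its sign turned without IR+NMN 1. Cry1 had 5.65, 6.90 and 5.97 TPM in IR+NMN libraries and changed by 0.071 (95% interval -0.34 to 0.48, limma adjusted p = 0.809), and its sign turned without IR+NMN 2 and with the highest row per symbol. The count of members called was 7 without IR+NMN 2 and with quantile normalization, where 2139 and 1409 of all genes passed, against 1053 in the main fit. It fell to 1 without Sham 2 or IR+NMN 3 (268 and 262 of all genes) and to 2 without IR+NMN 1 (360). It was 3 without Sham 1 or Sham 3 (638 and 434 of all genes), in the fit to IR+NMN and Sham alone (617) and with the highest row per symbol (1104). The member counts thus moved along with calls over all genes in the fits without a library. In the main fit 429 of all genes passed as higher and 624 as lower, while median-of-ratios scaling gave 704 and 570 and left 5 members called lower.

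The table gave several rows to many symbols, among them all members except Per2, with no identifier that tells the rows apart. The 9 members had 27 rows, of which 19 averaged at least 1 TPM over the libraries and 4 were listed at 0 everywhere. Of these 19 rows, 14 had every IR library below every Sham library, where 24.1% of all rows with a symbol and that mean did, and 12 had every IR+NMN library below every Sham library, where 19.5% did. Between IR+NMN and IR 1 of the 19 rows lay apart as lower, where 3.54% of all rows did. Per1 was split about evenly between a row at 6.03, 12.2 and 11.3 TPM in IR+NMN, 11.4, 9.02 and 9.5002 TPM in IR and 17.0, 17.8 and 14.1 TPM in Sham libraries and another at 7.87, 11.03 and 8.12 TPM, 10.6, 10.02 and 8.81 TPM and 14.9, 18.1 and 18.2 TPM in the same libraries. Both rows lay lower in every IR and IR+NMN library than in every Sham library. In Nr1d1 a single row held 94.5% to 96.4% of the sum in every library.

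Cry2 had 3 rows, which are shown singly because they were already known to differ between the groups, so their values are a description. The first held most of the sum, with 18.1, 31.4 and 23.1 TPM in IR+NMN libraries, 31.1, 20.5 and 22.1 TPM in IR libraries and 43.3, 41.1 and 35.9 TPM in Sham libraries. The second was listed at 0 in all 3 IR+NMN and all 3 IR libraries, and at 11.4, 10.2 and 7.96 TPM in Sham libraries, where it made up 17.8% to 20.4% of the sum. The third lay at 0.296 to 0.954 TPM in IR+NMN libraries, 0.363 to 0.864 TPM in IR libraries and 0.966 to 1.39 TPM in Sham libraries. In the first row every IR+NMN and IR library lay below every Sham library, so the groups also lay apart without the second row. Without it, Cry2 summed to 24.8 ± 6.90 TPM in IR+NMN, 25.2 ± 5.45 TPM in IR and 41.3 ± 3.98 TPM in Sham libraries. The change was then -0.70 for IR against Sham (limma adjusted p = 0.0790) and -0.74 for IR+NMN against Sham (limma adjusted p = 0.0594), and both calls were lost. Over the whole table, 53 rows with a symbol were at 1 TPM or more in all Sham libraries and listed at 0 in all others, and 16 rows showed the reverse. Whether the second row reflects transcripts or the authors' assignment of reads to rows was not tested.

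**Figure D3:**
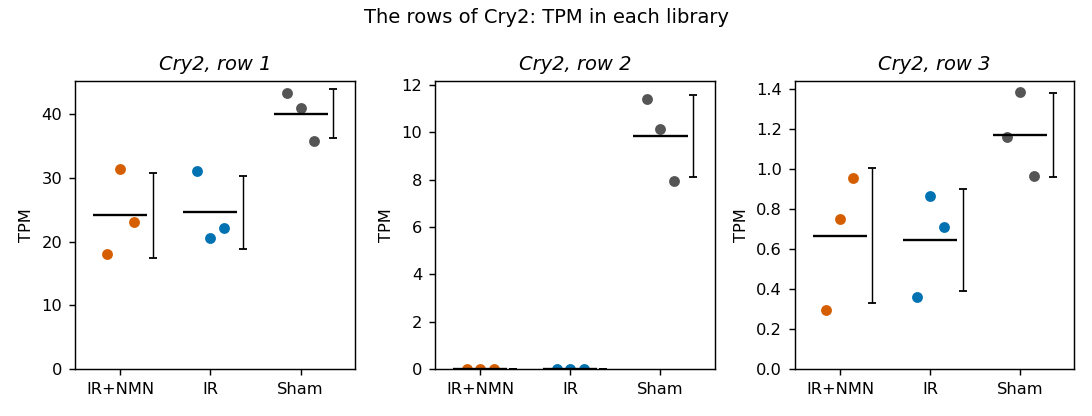
TPM of the 3 rows of Cry2 in each library, with 1 panel per row in the order of the table, and groups, lines and bars (mean and SD, n = 3) as in the plot of members by library. Row 1 carried most of the sum and was lower in every IR+NMN and IR library than in every Sham library, and row 2 was listed at 0 outside Sham libraries.

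Other transcription factors of the clock were taken from a list of 14 symbols, of which 9 were in the table and 7 passed the filter. Bmal1, the partner of CLOCK and a target of NR1D1 and NR1D2, had 12.05, 15.8 and 13.1 TPM in IR+NMN libraries, 12.2, 11.98 and 12.2 TPM in IR libraries and 14.6, 12.8 and 12.2 TPM in Sham libraries. IR+NMN overlapped with IR and with Sham, while every IR library lay just below every Sham library, by 12.23 against 12.24 TPM at the nearest pair. Bmal1 passed in no comparison, and the 95% intervals of its change were -0.15 to 0.44 for IR+NMN against IR, -0.26 to 0.33 for IR+NMN against Sham and -0.41 to 0.19 for IR against Sham. Its sign for IR against Sham turned with both other scalings. Npas2, a relative of Clock that also pairs with BMAL1, had 8.49, 14.2 and 9.21 TPM in IR+NMN libraries, 7.95, 11.1 and 13.7 TPM in IR libraries and 16.0, 24.1 and 28.6 TPM in Sham libraries. It fell in IR+NMN against Sham (log2 change -1.03, SE 0.27, limma adjusted p = 0.0470) and did not pass for IR against Sham (-0.99, SE 0.27, limma adjusted p = 0.0618). The E-box repressors Bhlhe40 and Bhlhe41 passed in no comparison.

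The D-box factors differed among themselves. Hlf, an activator related to Dbp, had 13.4, 34.4 and 17.3 TPM in IR+NMN libraries, 23.9, 27.9 and 22.3 TPM in IR libraries and 53.0, 51.4 and 40.0 TPM in Sham libraries. It fell in IR+NMN against Sham (log2 change -1.21, SE 0.29, limma adjusted p = 0.0358) and did not pass for IR against Sham (-0.93, SE 0.29, limma adjusted p = 0.0859). Tef, the other activator of this family, ranged from 80.1 to 197 TPM in IR+NMN, from 119.6 to 153 TPM in IR and from 109.7 to 175 TPM in Sham libraries, and passed in no comparison. Nfil3, the repressor that binds D-boxes, had 8.67, 7.92 and 8.98 TPM in IR+NMN libraries, 5.76, 5.02 and 5.38 TPM in IR libraries and 5.25, 5.51 and 4.77 TPM in Sham libraries. All IR+NMN libraries lay above all others. It rose in IR+NMN against IR (log2 change 0.58, SE 0.12, limma adjusted p = 0.0484) and against Sham (0.63, SE 0.12, limma adjusted p = 0.0168), and its change for IR against Sham was 0.049 (limma adjusted p = 0.810).

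In all, the list of other factors had 0 of 7 tested members called for IR against Sham, where 6.39% of all genes passed in either direction. For IR+NMN against IR 1 of 7 was called higher, where 2.30% of all genes were. For IR+NMN against Sham 1 of 7 was called higher and 2 of 7 lower. There 10.3% of all genes passed, 4.21% as higher and 6.13% as lower. The call of Nfil3 against IR held in 2 of 16 alternatives, which were the fits without the filter and without IR+NMN 2, and its limma adjusted p reached 0.240. Against Sham Nfil3 kept its call in 11 of 16 alternatives. Those that lost it included the fits without Sham 2, Sham 3, IR+NMN 1 or IR+NMN 3 (up to 0.0799). Hlf lost its call without any library except IR 1 and IR+NMN 2 (up to 0.135), and Npas2 without any except Sham 1, IR 1 and IR+NMN 2 (up to 0.160), with both other scalings and without the filter on low values. Both also lost it in the fit to IR+NMN and Sham alone.

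**Figure D4:**
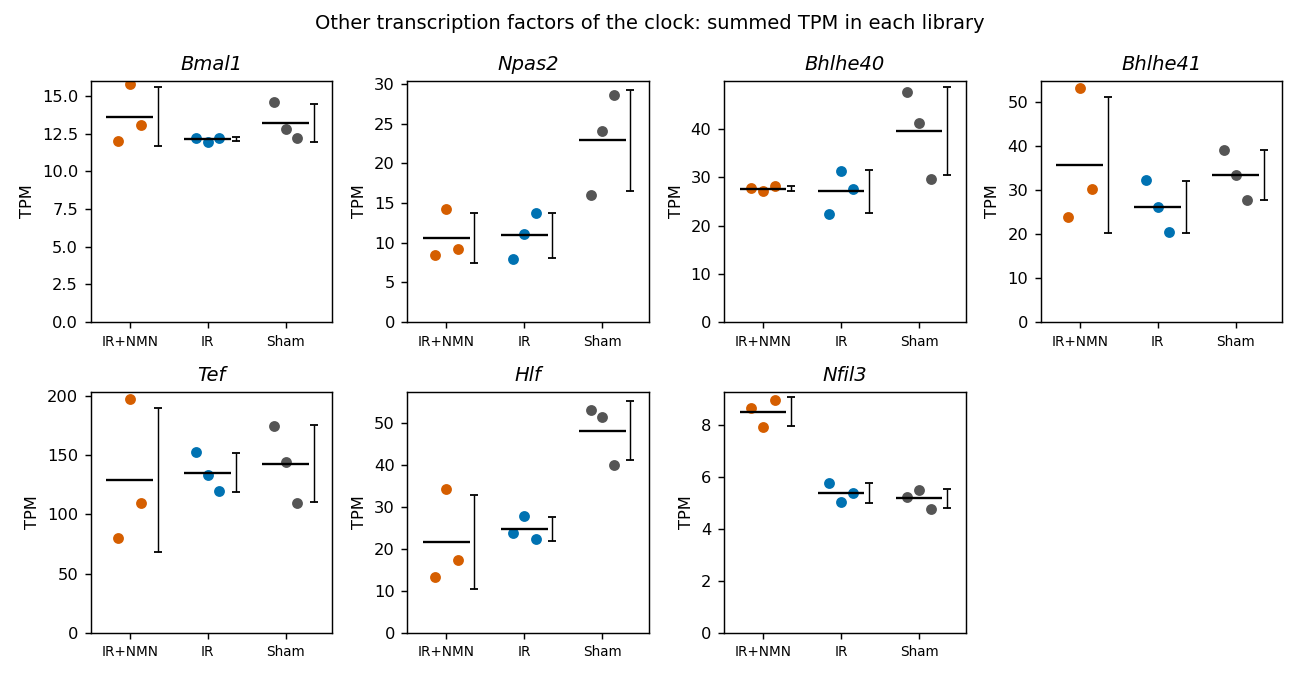
Summed TPM of 7 other transcription factors of the clock in each library, with groups, lines and bars (mean and SD, n = 3) as in the plot of members by library. Nfil3 was highest in the 3 IR+NMN libraries, Hlf and Npas2 were lower in every IR+NMN and IR library than in every Sham library, and for Bmal1 the IR+NMN libraries overlapped with both other groups.

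Each member was also set against Bmal1 within a library, a ratio that does not change when all values of a library are multiplied by 1 factor. This denominator was chosen after its values were seen, and the ratios are a description. Dbp over Bmal1 was 4.03, 4.58 and 2.98 in IR+NMN libraries, 6.18, 6.38 and 5.52 in IR libraries and 10.2, 12.1 and 13.1 in Sham libraries, so that the 3 groups did not overlap. Nr1d1 over Bmal1 was 1.36, 2.03 and 1.53 in IR+NMN, 2.93, 2.05 and 2.16 in IR and 3.77, 4.54 and 4.11 in Sham libraries. IR+NMN 2 and IR 2 were almost level in this ratio. Per2 over Bmal1 lay between 0.487 and 0.537 in IR+NMN, between 0.616 and 0.672 in IR and between 0.676 and 1.09 in Sham libraries. With Per1 these were 4 of 9 members with every IR+NMN ratio below every IR ratio, where 13.5% of all genes showed that order. For IR against Sham 7 of 9 ratios lay apart as lower, where 17.0% of all genes did, and for IR+NMN against Sham also 7 of 9, where 30.3% did. Such ratios show unequal change of the 2 genes and not that Bmal1 was constant.

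**Figure D5:**
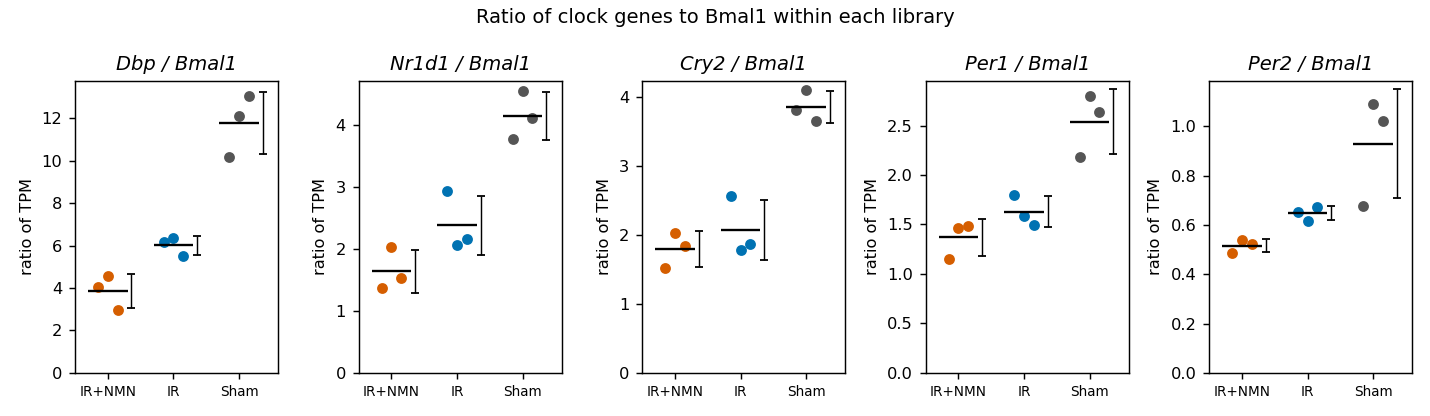
Ratio of the TPM of Dbp, Nr1d1, Cry2, Per1 and Per2 to that of Bmal1 within each library, with groups, lines and bars (mean and SD, n = 3) as in the plot of members by library. For Dbp, Nr1d1, Per1 and Per2 the IR+NMN libraries lay lowest, the IR libraries between and the Sham libraries highest, and for Cry2 the IR+NMN and IR libraries overlapped.

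Of 22 symbols for kinases, ubiquitin ligases and other proteins that modify clock proteins, 19 were in the table and tested. None passed for IR against Sham or IR+NMN against IR by limma, where 6.39% and 2.36% of all genes did, while 1 of 19 fell for IR+NMN against Sham, a share near the 6.13% of all genes. This was Fbxw7, a ubiquitin ligase subunit known to act on NR1D1, with 52.4, 61.5 and 53.2 TPM in IR+NMN libraries against 70.6, 92.6 and 74.2 TPM in Sham libraries (log2 change -0.49, SE 0.13, limma adjusted p = 0.0471). Its call held in 4 of 16 alternatives. It was lost without any library except IR 1 and IR+NMN 2 (up to 0.172). The median change of these 19 genes was -0.20 for IR against Sham and -0.15 for IR+NMN against Sham, next to -0.21 and -0.14 for all genes. The casein kinase genes Csnk1d and Csnk1e, whose proteins phosphorylate PER, did not pass. Gsk3b, a kinase that acts on several clock proteins, had the largest change of the list for IR against Sham without passing (-1.09, SE 0.35, limma adjusted p = 0.0910).

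Among 18 genes known as outputs of the clock, 17 passed the filter. None passed the test for IR against Sham or IR+NMN against IR by limma, where 6.39% and 2.36% of all genes did. For IR+NMN against Sham 1 of 17 rose and 1 of 17 fell, shares near the 4.21% and 6.13% of all genes. Cdkn1a, the cell cycle inhibitor p21 and a target of p53 as well, had 18.0, 18.8 and 31.3 TPM in IR+NMN libraries against 6.73, 6.39 and 6.56 TPM in Sham libraries (log2 change 1.61, SE 0.21, limma adjusted p = 0.00368), a call kept in all 16 alternatives. Dusp1, a phosphatase of MAP kinases that is also an immediate early gene, had 10.1, 10.96 and 12.7 TPM in IR+NMN libraries against 16.3, 26.0 and 31.4 TPM in Sham libraries (log2 change -1.02, SE 0.23, limma adjusted p = 0.0270). It kept its call in 8 of 16 alternatives. Those that lost it included the fits without Sham 2, Sham 3, IR+NMN 1 or IR+NMN 3 (up to 0.111). They also included median-of-ratios scaling, the highest row per symbol and the fit to IR+NMN and Sham alone. Nampt, the salvage enzyme that makes NMN in cells and whose transcript CLOCK and BMAL1 can drive, averaged 25.5 ± 4.38 TPM in IR+NMN, 21.8 ± 3.80 TPM in IR and 26.8 ± 3.89 TPM in Sham libraries and passed in no comparison.

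The genes most like 4 members over the 9 libraries were found by Pearson correlation of log2(TPM + 1) among 8163 genes that averaged at least 5 TPM. They are given for the 4 members with the smallest p for IR+NMN against Sham, a choice made after the values were seen, as a description, since the libraries fall into groups. For Dbp they were Slco2b1 (r = 0.981), Slc4a3 (r = 0.976) and Snx32 (r = 0.972), whose correlations within groups, after removal of group means, were 0.862, 0.739 and 0.862. For Nr1d1 they were Ttc3 (r = 0.992), Cpt1c (r = 0.991) and Gpld1 (r = 0.986). For Cry2 they were Aplp1 (r = 0.994), Fzd2 (r = 0.992) and Tbc1d25 (r = 0.992), and for Per1 Man2b1 (r = 0.987), Ppp6r3 (r = 0.985) and Leng8 (r = 0.985). Within groups these 9 correlations lay between 0.929 and 0.989. All these genes were picked by r over the same libraries, so the values are no test of shared regulation.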

How the data were processed

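RNA sequencing of 9 rat brain libraries was analysed from 1 table of gene expression. Per the labels' protocols, amplification of the RNA followed Smart-Seq2. STAR, Cufflinks and the human build hg38 appear in the submitters' processing notes with no role, and neither versions nor an annotation are given there. The unit was read as TPM because every deposited column sums to 1000000. Of 131003 rows, 27683 carried a symbol with 72.7% to 78.7% of each library's TPM, and the other rows stayed out of the tests. A row's transcripts are unknown, so reads that related genes share may be split between them.

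Rows were summed per symbol, and genes that reached 1 TPM in 3 or more libraries were tested on log2(TPM + 1). Changes of low genes are understated on this scale. The model was fitted with limma 3.58.1 (R 4.3.3) with an intensity trend, robust variances, 1 mean per group and 6 residual degrees of freedom. It was checked on simulated data with noise independent between genes, so the check does not cover deviations that the genes of a library share. All 3 groups share 1 estimate of spread. Alternatives changed the pseudocount (0.1), filter, scaling, row per symbol, libraries and replicate block. The members and all lists were chosen with earlier results of these data known. Besides the members, the text names list genes that passed in any comparison or had the 2 smallest p, and a few others, such as Bmal1, Tef, Csnk1d, Csnk1e, Bhlhe40 and Nampt, chosen for their role after their values were seen. Hif3a, an output gene, is named under this rule only here (log2 change 0.81 for IR against Sham, limma adjusted p = 0.0606). The same holds for the modifiers Timeless (0.44, limma adjusted p = 0.349) and Nono (0.25, limma adjusted p = 0.432) for IR+NMN against IR. Promoter sequences came from RefSeq (GRCr8), and figures were drawn with matplotlib 3.10.9.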

Additional observations from a re-analysis of the deposited data

How the results depend on the processing

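Counts are given first for the occlusion (IR against Sham), then for NMN (IR+NMN against IR), then for both (IR+NMN against Sham), and were 3, 0 and 5 members called. Leaving out 1 library at a time gave 0 to 7, 0 to 1 and 1 to 7 members, and 56 to 1142, 0 to 459 and 262 to 2139 of all genes, against 651, 240 and 1053 with all libraries. The highest row per symbol gave 0 and 3 members against Sham, and 736 and 1104 of all genes. Fits to the groups compared alone gave 5 and 3 members against Sham, and 699, 2 and 617 of all genes in the 3 comparisons. For IR+NMN against IR, median-of-ratios scaling gave 72 genes in all and quantile normalization 7. Deviations of same-numbered libraries from their group means had correlations from -0.57 to 0.49. For Sham and IR these were 0.40, -0.32 and 0.49 for replicates 1, 2 and 3. With 3 libraries a group they cannot show whether equal numbers mark a block. With the replicate block, 0 and 2 members passed against Sham, and 100, 33 and 499 of all genes in the 3 comparisons. Signs that turned were those of changes that had not passed. With quantile normalization these were Cry1 (0.082) and Bmal1 (0.13) for IR against Sham and Per3 (-0.022) for IR+NMN against IR, with median-of-ratios scaling Bmal1 (0.11) for IR against Sham, and with the highest row per symbol Cry1 (-0.15) for IR+NMN against Sham. Without 1 library, changes for IR+NMN against IR ranged from -0.25 to 0.10 for Per1, -0.37 to 0.57 for Per3, -0.23 to 0.15 for Cry2, -0.28 to 0.24 for Nr1d2, -0.17 to 0.55 for Clock and -0.25 to 0.13 for Npas2. For IR+NMN against Sham they ranged from -0.67 to 0.047 for Clock, -0.0014 to 0.16 for Cry1 and -0.067 to 0.12 for Bmal1. The causes were not tested. Dbp kept its call against Sham in IR+NMN in all 16 alternatives. Dropping the Cry2 row listed at 0 outside Sham, an alternative chosen after seeing the data, gave 2 and 4 members against Sham. Depth is unknown, and 3 libraries a group limit what a comparison can call.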

Other observations

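Per1 is also a target of the glucocorticoid receptor, and 12 genes known to respond to glucocorticoids were listed beside it, of which 11 were tested. For IR against Sham 2 of these 11 rose and 0 fell by limma, where 1.14% of all genes rose. Their median change was 0.48, with a change below 0 in 2 of 11, while the change of Per1 was -0.73. The part of glucocorticoids in any of these changes was not tested. Mt2A, a metal-binding protein that metals and oxidative stress also induce, had 727, 796 and 599 TPM in IR libraries against 148, 139 and 99.0 TPM in Sham libraries (log2 change 2.46, SE 0.18, limma adjusted p = 3.02e-04). It kept its call in all 16 alternatives. Sult1a1, a sulfotransferase, had 29.6, 40.7 and 48.1 TPM in IR libraries against 13.4, 11.4 and 18.5 TPM in Sham libraries (1.39, SE 0.32, limma adjusted p = 0.0401). Its call held in 8 of 16 alternatives. Those that lost it included the fits without Sham 1, Sham 2, Sham 3, IR 2, IR 3 or IR+NMN 3 (limma adjusted p up to 0.160). They also included the highest row per symbol. Tsc22d3, which encodes the glucocorticoid-induced leucine zipper protein GILZ, did not pass, at 58.0, 56.7 and 70.1 TPM in IR libraries against 40.6, 45.2 and 45.0 TPM in Sham libraries (0.48, SE 0.13, limma adjusted p = 0.0618).

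For IR+NMN against IR, limma called 0 of these 11 genes, where 2.36% of all genes passed, and 3 had an unadjusted p under 0.05, as did 13.3% of all genes. Tsc22d3 had 39.1, 46.9 and 36.6 TPM in IR+NMN libraries against the IR values above, with no overlap between the groups (-0.58, SE 0.13, limma adjusted p = 0.0628). For IR+NMN against Sham 2 of 11 rose, where 4.21% of all genes did, namely Mt2A (2.81, SE 0.18, limma adjusted p = 2.13e-04) and Cdkn1a, which is on this list too, and their median change was 0.072.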
